A study of Mus musculus with 20 samples.

Results

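Hippocampal neurospheres of mice were sequenced in 14 libraries: 6 of a first sphere round against 8 of a second round, of 20 libraries in all. Neurospheres are free-floating clusters that neural stem and progenitor cells form in medium with growth factors and without a surface to attach to. Repeated rounds of sphere formation are used as a measure of self-renewal, and spheres as a rule hold dividing progenitors together with slowly cycling and astrocyte-like or oligodendrocyte-like cells. The measured items were the autosomal genes with at least 1 RPKM (reads scaled to gene length and library size) in at least 3 of the 14 libraries. These were 14073 of the 35241 autosomal genes in the deposited table, among them 12243 of 23226 genes with several exons and 580 of 1797 short RNA genes, which are given apart.

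The first round held 3 libraries from Egfl7 knockout donors, all male, and 3 from wild-type donors, all female. The second round held 4 knockout and 4 wild-type libraries, all from male donors. Egfl7 encodes a secreted protein with EGF-like domains that is made mainly by endothelial cells and binds Notch receptors; the labels give the genotype and name no promoter or Cre. Every donor was an adult C57BL/6 mouse of 8 to 12 weeks. Hippocampal tissue was dissociated with papain, and cells of both rounds were kept untreated for 5 days in medium with B27 and with EGF and FGF at 20 ng/ml. The sources used here do not give how second-round spheres were obtained from the first. Each library has a mouse number in its title, and the design text calls the libraries biological replicates. Within the wild types, sphere round and donor sex cannot be told apart, whereas the knockouts were male in both rounds. Egfl7 itself lay between 0 and 1.34 RPKM in the first round and between 0 and 1.59 RPKM in the second, and no difference between the rounds was called (log2 difference 0.08, SE 0.11, adjusted p = 0.578). It was at 0 in all 7 knockout libraries and at 0.566 to 1.59 RPKM in all 7 wild-type libraries, which matches the genotype labels, although the wild-type level was itself near the filter.

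The rounds also differed as sets of libraries. If the lowest value of a single-exon gene stands for 1 read, the first-round libraries held 11.6 to 12.9 M reads and the second-round ones 17.8 to 28.9 M reads. The labels' protocol names 50 M reads, which is above both estimates. Genes with a value numbered 19589 to 20158 per library in the first round and 20640 to 22204 in the second. The labels give one protocol for all 20 libraries: total RNA depleted of ribosomal RNA, stranded libraries and hybrid capture of exons. RNAs that lack a poly(A) tail, such as replication-dependent histone messages and the 7SK, 7SL, ribonuclease P and ribonuclease MRP RNAs, were nevertheless near 0 or far lower in all 6 first-round libraries than in any of the 8 second-round ones, as given below. Whether the libraries of both rounds were prepared alike cannot be settled from the sources used here. Round therefore cannot be told apart from depth or from library preparation for any difference below, and no label gives a library batch. Within the second round, knockouts 1 and 7 and wild type 2 stood apart from the other 5 libraries, with a cell cycle gene mean near that of the first round, and counts of gene lists that moved by over 1.5 times without these 3 libraries are given both ways. The 3 were set apart after their values were seen, so the counts over the other 5 are descriptions. First-round wild type 1 stood apart from the other 5 first-round libraries: its first principal component score was -25.3, against -41.6 to -49.0.

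Other cell types were rare or absent by their markers. Of the microglia and macrophage list, 11 of 20 genes were at 0 in every first-round library and 8 of 20 in every second-round library, and C1qa, Cx3cr1, Trem2 and Tyrobp were at 0 in all 14. The summed level of that list was 29.1 to 41.7 RPKM in the first round and 31.2 to 57.4 RPKM in the second. The endothelial list summed to 3.47 to 4.19 and 1.44 to 4.23 RPKM over 19 genes. The pericyte and fibroblast list summed to 131 to 191 and 78.5 to 141 RPKM over 19 genes, most of it Pdgfra, Cald1, Cspg4 and Notch3, while Lum was at 0 in all 14. The hemoglobin and other blood genes summed to 0.049 to 0.561 and 0.312 to 1.26 RPKM over 6 genes. The neural lists were high in both rounds: 14 of 16 oligodendrocyte precursor genes and 24 of 26 astrocyte genes had at least 1 RPKM in every first-round library, and 13 and 23 did in every second-round library. The label of neural spheres thus had its markers in all 14 libraries.

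Of the multi-exon genes 52.5% differed between the rounds. With values as log2(RPKM + 1), genotype as a term and Benjamini-Hochberg adjustment over all kept genes at a threshold of 0.05, limma called 2511 higher in the second round (20.5%) and 3913 lower (32%). A log2 difference is second minus first round throughout, on the log2(RPKM + 1) scale, which understates the change of low genes, and every adjusted p below is from this limma fit. A lone value in parentheses after a gene is its log2 difference, and genes said to have risen or fallen passed the threshold. Over all kinds of genes 53.6% were called, 22.4% higher and 31.2% lower, and every count of a gene list below stands beside these shares. Among single-exon genes over 400 bases 73.6% were called, and among the 848 genes for which the annotation used here gave no exon count 63.2%. Of the 6424 called multi-exon genes, 34 rose and 144 fell by more than 4-fold. In 3094 genes (25.3%) no first-round value overlapped a second-round value. Of the 12243 genes, 368 reached the filter through the second round alone and 261 through the first alone. For these the filter itself favoured a call towards the round that passed it. The typical shift was small: the median log2 difference was -0.08 over all multi-exon genes. The split between higher and lower depended on scaling, because the median multi-exon gene of a library lay 0.15 lower on the log2 scale in the second round. After scaling each library to its median, 3738 genes were higher and 2927 lower, and after centring within bins of GC content 3305 were higher and 3135 lower. Every named gene kept its direction under median scaling, quantile normalization and GC centring; list medians and calls that did not hold under them are given where they occur.

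The differences were alike in both genotypes. Within the knockouts 4236 multi-exon genes were called (34.6%), within the wild types 4195 (34.3%), and 3396 were called in both, 80.2% of the first set and 81.0% of the second. Every one of these 3396 moved in the same direction. Across the 12243 genes the log2 differences of the genotypes, which share no library, had a Pearson r of 0.924; this is across genes, which are not independent replicates. The difference between the genotypes' round effects was called by limma in 0 multi-exon genes, where 179 had an unadjusted p under 0.05. Among genes of all kinds it was called in 1 gene (0.00711%), the microRNA gene Mir6919, larger in the knockouts. That gene reached the filter through the second-round knockouts alone.

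**Figure D1:**
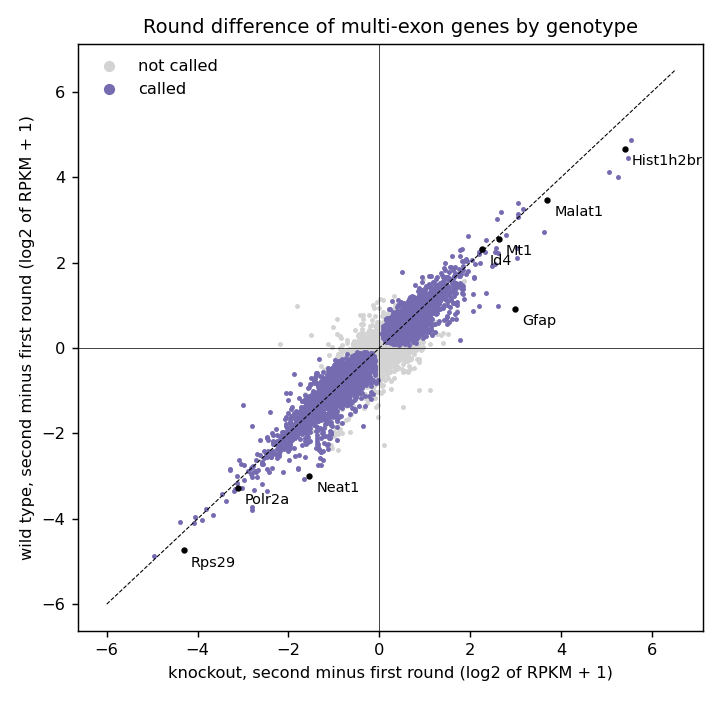
Log2 difference between rounds of each autosomal multi-exon gene within the knockouts (horizontal axis) and within the wild types (vertical axis), with called genes in purple, uncalled genes in grey and the dashed line at equality. Rps29 lies at the lower end near the line, Hist1h2br and Malat1 at the upper end, and Gfap (2.99 in knockouts, 0.91 in wild types) lies away from it without being called.

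Replication-dependent histone genes had higher values in the second round in every measured member, in libraries whose preparation cannot be told apart from the round. Replication-dependent histone messages are made in S phase and end in a stem loop instead of a tail. Of the 51 such genes listed, 14 reached 1 RPKM in 3 or more first-round libraries and 51 did in the second round, so 37 passed the filter through the second round alone, and for these the filter itself favoured a higher call. The 14 that reached it in both rounds were all called higher without overlap, with log2 differences of 4.32 to 6.24 (median 4.89). As a description, all 51 were called higher, with no overlap between rounds in any (26.6% of all autosomal genes had none), and the median log2 difference was 5.86; of all autosomal genes, 22.4% were called higher. Over the 5 second-round libraries without knockouts 1 and 7 and wild type 2 the median was 4.77. Hist1h4d, a histone H4 gene at chr13:23581602-23581969 (GRCm38), had 0 to 1.06 RPKM (median 0.265) in the first round and 365 to 1352 RPKM (median 439) in the second (log2 difference 8.798, SE 0.34, adjusted p = 1.29e-10). The linker histone gene Hist1h1e had 0.13 to 2.13 RPKM (median 0.976) and 283 to 804 RPKM (median 392) (log2 difference 7.91, SE 0.26, adjusted p = 2.86e-11). Hist1h4h, another H4 gene, had 0 to 1 RPKM (median 0.668) and 216 to 961 RPKM (median 285). In the first-round libraries these 3 genes were thus near 0, and in each second-round library they were at 216 RPKM or above. All 3 are among the 37 that passed the filter through the second round alone, so the filter favoured their higher calls. The first-round SVZ spheres of the series, taken at day 3, were near 0 too, at 0.693 to 1.23 RPKM for Hist1h4d.

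The stem loop is the sequence that sets these messages apart, and it is printed here for 4 of the named genes. The letters come from GENCODE M21 transcripts on GRCm38, the capitals mark the 16-base stem loop, and 6 bases on either side are in lower case:

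Hist1h4d: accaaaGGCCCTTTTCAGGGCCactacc
Hist1h4h: accaaaGGCCCTTTTCAGGGCCgcccac
Hist1h1e: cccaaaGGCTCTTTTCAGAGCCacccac
Hist1h2bp: cacaaaGGCTCTTTTCAGAGCCacccac

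They lie at chr13:23581944-23581971 (plus strand), chr13:23531452-23531479 (plus strand), chr13:23621776-23621803 (minus strand) and chr13:21787917-21787944 (plus strand). The pattern searched on the transcript strand was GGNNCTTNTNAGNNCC. It occurred in an annotated transcript of 36 of the 51 histone genes (70.6%) and in 96 of the 12660 other kept genes that have a transcript there (0.758%). No match says only that these letters are not in the annotated transcript. A match describes letters and is no evidence of processing. Other histone genes rose among the multi-exon class. Hist1h2br had 2.34 to 4.63 RPKM (median 3.33) and 51.7 to 457 RPKM (median 93.3) (log2 difference 5.03, SE 0.49, adjusted p = 1.46e-06), and Hist1h2bc had 3.01 to 9.65 RPKM (median 6.29) and 126 to 638 RPKM (median 189) (log2 difference 5.21). Near-identical histone copies can share reads, so the level of any single copy is uncertain. H2afj, a replication-independent H2A variant, had 4.46 to 12.4 RPKM (median 7.03) and 49.2 to 103 RPKM (median 80.7) (log2 difference 3.22, SE 0.21, adjusted p = 2.52e-08).

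Short RNA genes, that is microRNA, small nuclear, small nucleolar, transfer, 7SL, 7SK and similar genes and single-exon genes of up to 400 bases, took up 0.815 to 1.07% of the summed RPKM in the first round (median 0.883%) and 10.7 to 25.5% in the second (median 19.3%). The ranges did not overlap, and the difference of 17.7 percentage points had a two-sided exact permutation p of 0.000816, the smallest that rearranging libraries within genotypes can give (0.00286 after Benjamini-Hochberg adjustment over 14 such tests). Of 580 kept short RNA genes 291 were called (50.2%), 276 higher (47.6%) and 15 lower (2.59%), with a median log2 difference of 1.02. Of the 580, 379 reached the filter through the second round alone and 4 through the first alone, so a higher call was favoured for those 379 by the filter itself. By kind, 172 of 412 microRNA genes rose and 7 fell, 53 of 104 small nucleolar and Cajal body RNA genes rose and 6 fell, 21 of 29 transfer RNA genes rose and 1 fell, and 13 of 14 small nuclear RNA genes rose.

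**Figure D2:**
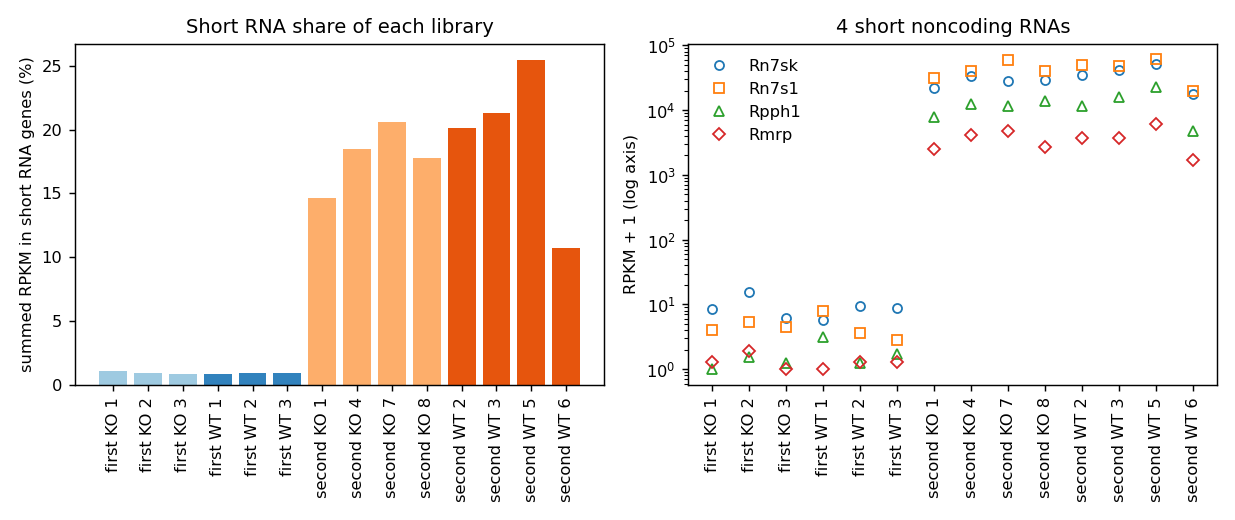
Share of the summed RPKM in short RNA genes per library (left, percent, bars from 0) and RPKM + 1 of 4 short noncoding RNAs per library (right, log axis). All 6 first-round libraries lie at or below 1.07% and all 8 second-round libraries at or above 10.7%.

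The abundant structural RNAs led this class. Rn7sk, the 7SK RNA that holds the elongation factor P-TEFb inactive, at chr9:78175302-78175633, had 4.71 to 14.7 RPKM (median 7.59) in the first round and 17875 to 51775 RPKM (median 31616) in the second (log2 difference 11.83, SE 0.26, adjusted p = 5.01e-13). Rn7s1, a 7SL RNA of the signal recognition particle, had 1.81 to 6.8 RPKM (median 3.3) and 19724 to 60714 RPKM (median 44721) (log2 difference 13.19). The annotated 300-base transcripts of Rn7s1 and Rn7s2 were identical, so reads cannot be assigned between them. Rpph1, the RNA of ribonuclease P, had 0 to 2.17 RPKM (median 0.39) and 4746 to 22436 RPKM (median 12006) (log2 difference 12.88). Rmrp, the RNA of the related ribonuclease MRP, had 0 to 0.935 RPKM (median 0.284) and 1711 to 6228 RPKM (median 3687) (log2 difference 11.401). For Rpph1 and Rmrp, which reached the filter through the second round alone, the filter itself favoured a higher call. In each of the 4 RNAs, Rn7sk, Rn7s1, Rpph1 and Rmrp, the lowest second-round library was more than 100 times the highest first-round library. These RNAs, too, are without a poly(A) tail, and for them round and library preparation cannot be told apart. The last 30 bases of 3 of them are shown because they are among the RNAs of largest difference; none of the 3 transcripts holds AATAAA, the usual poly(A) signal, anywhere in its length of 331, 319 and 281 bases:

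Rn7sk: ggcgctgcatgtggcagtctgcctttcttt
Rpph1: ataacccaattcagactactctcccccgcc
Rmrp: acacggggctcattctcagcgcggctacac

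They come from chr9:78175303-78175332 (minus strand), chr14:50807449-50807478 (minus strand) and chr4:43492783-43492812 (minus strand) of GRCm38 by GENCODE M21. Malat1, a long nuclear RNA whose end is cut by ribonuclease P, rose as well, from 88.9 to 152 RPKM (median 117) to 798 to 2408 RPKM (median 1438) (log2 difference 3.58, SE 0.21, adjusted p = 7.7e-09). Neat1, the RNA scaffold of paraspeckles, fell, from 23 to 101 RPKM (median 32.4) to 2.65 to 30.5 RPKM (median 6.71) (log2 difference -2.27, SE 0.55, adjusted p = 0.00326), with overlap between the rounds. Of the nuclear long noncoding list, 1 rose and 4 fell of 9 measured members (median log2 difference -0.63); Peg13 fell (log2 difference -1.87) and so did Snhg14 (-0.78).

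Among the short RNAs that fell were 3 copies of one microRNA gene. Mir692-2 had 256 to 585 RPKM (median 469) in the first round and 0 to 7.02 RPKM (median 5.05) in the second (log2 difference -6.54, SE 0.43, adjusted p = 2.29e-08). Mir692-3 had 200 to 729.8 RPKM (median 409.6) and 0 to 5.55 RPKM (median 2.97) (log2 difference -6.99), and Mir692-1 had 3.77 to 26.1 RPKM (median 7.96) and 0 to 3.05 RPKM (median 0.816) (-2.39). Mir135a-1 had 3.55 to 13.8 RPKM (median 9.08) and 0 to 5.63 RPKM (median 2.98), with overlap (log2 difference -1.43, SE 0.38, adjusted p = 0.00624). Mature sequences by RefSeq (GRCm38.p6), with the seed, bases 2 to 8, in capitals, show that the 3 Mir692 genes encode the same mature RNA and that Mir135a-1 has another seed:

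mmu-miR-692: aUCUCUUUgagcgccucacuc
mmu-miR-135a-5p: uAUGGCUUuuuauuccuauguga

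These mature sequences lie at chr17:6895259-6895279 (minus strand), chr4:125504805-125504825 (plus strand), chr13:74407121-74407141 (plus strand) and, for miR-135a-5p, chr9:106154140-106154162 (plus strand). The 21 bases of miR-692 occur in GENCODE transcripts of 16 genes, 9 of them microRNA genes. The others include Ftl1, the ferritin light chain, and 5 pseudogenes. Ftl1 had 451 to 834 RPKM (median 509) in the first round and 368 to 513 (median 454) in the second, and was not called (log2 difference -0.32, adjusted p = 0.0567). Gene-level RPKM of a microRNA gene from such libraries covers the hairpin region and does not measure the mature microRNA.

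The largest falls are given gene by gene. Taf15, an RNA-binding protein, at chr11:83473071-83506743, had 115 to 142 RPKM (median 137) in the first round and 14.9 to 30.1 RPKM (median 19.5) in the second (log2 difference -2.67, SE 0.12, adjusted p = 7.46e-10), and Fbl, the methyltransferase of box C/D small nucleolar RNPs, had 47.5 to 69 RPKM (median 55) and 5.41 to 12.6 RPKM (median 5.91) (-2.76). Polr2a, the largest subunit of RNA polymerase II, had 75.7 to 97.7 RPKM (median 90.8) and 6.05 to 12.1 RPKM (median 8.72) (log2 difference -3.203, SE 0.14, adjusted p = 4.02e-10). No first-round value of these 3 genes overlapped a second-round value, which the rule for naming the largest differences required. Anp32b, an acidic histone chaperone, fell by 4.09 on the log2 scale, Hmgn2, a nucleosome-binding protein, by 3.80, and Ccnk, the cyclin of Cdk12, by 2.80. Rps29, a small ribosomal subunit protein, had 273 to 348 RPKM (median 321) and 7.73 to 20.4 RPKM (median 12.3) (log2 difference -4.52, SE 0.18, adjusted p = 1.68e-10). Ptges3, a co-chaperone of Hsp90, had 40 to 54.8 RPKM (median 46.8) and 1.32 to 3.15 RPKM (median 1.79) (-4.004). Wasf1, which drives branched actin assembly, had 91.9 to 137 RPKM (median 110.1) and 7.98 to 16.5 RPKM (median 10.8) (-3.24), and Tmsb10, a thymosin that binds actin monomers, had 501 to 875 RPKM (median 686) and 30.6 to 90.4 RPKM (median 48.2) (-3.78). Tagln2, an actin-binding protein, fell by 3.30, Ppp2r2a, a regulatory subunit of phosphatase PP2A, by 3.44, Gng3, a G protein gamma subunit, by 3.26, and Tubb4a, a beta tubulin, by 3.08. The same genes were high in the first-round SVZ spheres, for example 137 to 148 RPKM for Taf15 and 99.9 to 142 for Polr2a. With only the 5 second-round libraries of low cell cycle mean, the log2 difference of Taf15 was -2.79 and that of Polr2a -3.01.

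Falls were more frequent in genes that share sequence with pseudogenes. For each gene the longest annotated transcript was cut into all words of 50 bases, and the share also found in an annotated pseudogene transcript was counted. Of 9300 genes with no shared word 27.7% fell and 22.5% rose. Of 785 genes with 1 to 10% shared words 56.2% fell, of 355 with 10 to 30% it was 67.6%, and of 190 with more than 30% it was 74.2%, while 1.58% of these last rose. Of the 144 genes that fell by more than 4-fold, 88 shared at least 1 word, against 2484 of all 11784 multi-exon genes with a shared-word value. The share of words was 26.5% in Rps29, 22.2% in Ptges3 and 12.1% in Anp32b. Polr2a, Taf15, Fbl, Wasf1, Ccnk, Tagln2, Gng3 and Tubb4a shared none. The part that assignment of reads between genes and pseudogenes has in the falls was not tested. The calls also moved with GC content: of the 2357 genes lowest in GC content 14.1% rose and 40.5% fell, and of the 2357 highest 33.7% rose and 21.04% fell. Transcript length showed a smaller gradient, from 23.02% rising in the shortest class of 5 over 17.6% in the middle one to 23.2% in the longest.

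**Figure D3:**
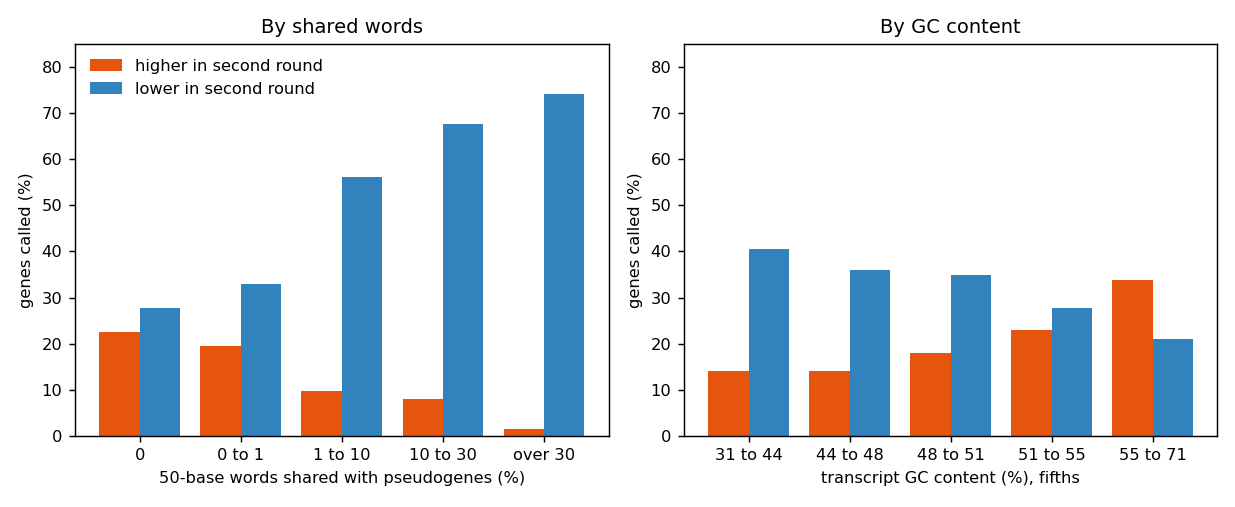
Percentage of autosomal multi-exon genes called higher (orange) and lower (blue) in the second round, by the share of 50-base words that their transcript has in common with pseudogenes (left) and by 5 classes of transcript GC content (right). The share of falls climbs from 27.7% to 74.2% on the left and drops from 40.5% to 21.04% on the right.

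Cytosolic ribosomal protein genes fell as a group, and this is where shared words were most common. Of 49 measured members 42 fell and 0 rose, against 31.2% and 22.4% of all autosomal genes, and the median log2 difference was -0.99. Rpl23 had 669 to 845 RPKM (median 777) and 85.8 to 141 RPKM (median 105) (log2 difference -2.82, SE 0.12, adjusted p = 3.31e-10), and Rps13 had 136 to 181 RPKM (median 152) and 17.3 to 38.3 RPKM (median 22.5) (-2.64). Rpl30 fell as well (-2.81), with overlap. Of the 49 genes 47 shared 50-base words with pseudogenes; of the other 2, 1 fell. The mean of the list per library was 8.11 to 8.36 on the log2 scale in the first round and 6.75 to 7.49 in the second, without overlap.

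Among genes with no shared word the largest rises included a metallothionein, a retinoid enzyme and 3 mitochondrial genes. Mt1, a metallothionein that binds zinc and copper, had 190.5 to 533 RPKM (median 246) and 741 to 3151 RPKM (median 1739.8) (log2 difference 2.59, SE 0.33, adjusted p = 1.62e-05). Aldh1a1, a retinaldehyde dehydrogenase, had 5.23 to 15.4 RPKM (median 7.07) and 29.8 to 127 RPKM (median 51.4) (log2 difference 2.57, SE 0.33, adjusted p = 1.82e-05). Chchd10, a protein of the mitochondrial intermembrane space, had 3.92 to 5.96 RPKM (median 4.53) and 20.9 to 38.5 RPKM (median 34.2) (2.397), and Fdx1l, a mitochondrial ferredoxin, had 0 to 1.43 RPKM (median 0.545) and 8.64 to 19.2 RPKM (median 12.5) (3.17). Sfxn5, a mitochondrial carrier of the sideroflexin family, had 61.6 to 120.1 RPKM (median 69) and 249.9 to 630.3 RPKM (median 360) (2.29). Ttyh2, a membrane protein of the tweety family, rose by 2.26 and Scand1, a SCAN domain protein, by 2.93. In all 7 of these genes every second-round library lay above every first-round library, which the rule for naming the largest differences required. Mrfap1, which shares 10.3% of its words with pseudogenes, rose by 3.09.

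Growth arrest genes moved in both directions. Cdkn2b, the inhibitor p15 of Cdk4 and Cdk6, had 1.18 to 5.57 RPKM (median 3.1) in the first round and 11 to 33.2 RPKM (median 20.3) in the second (log2 difference 2.29, SE 0.28, adjusted p = 1.03e-05), and its neighbour Cdkn2a, which encodes p16 and p19Arf, had 65.8 to 121 RPKM (median 76) and 142 to 205 RPKM (median 161) (1.02). Gas1, a membrane protein of growth-arrested cells, had 0.677 to 1.84 RPKM (median 1.39) and 8.34 to 17.4 RPKM (median 14.2) (2.63). Cdkn2c, the related inhibitor p18, fell (-0.95), as did Hmga1 (-2.27) and the lamin gene Lmnb1 (-1.56). Of the senescence and growth arrest list 5 rose and 5 fell of 20 measured members (median log2 difference 0.06), and over the 5 second-round libraries 9 rose and 6 fell (median 0.23). Of the p53 target list 4 rose and 4 fell of 20 measured members (median log2 difference -0.06): Bbc3, which encodes the death protein Puma, had 1.86 to 4.93 RPKM (median 2.53) and 12.9 to 24.2 RPKM (median 15.7) (2.25), Phlda3, an inhibitor of Akt, rose (1.31), and Zmat3 fell (-1.35). Over the 5 libraries 5 rose and 7 fell, and among the 16 members with no shared word 4 rose and 1 fell. The median of the p53 list was positive, 0.09, after median scaling.

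The mean of the cell cycle genes was lower in 5 of the 8 second-round libraries and at the first-round level in the other 3. The mean of the 40 listed genes was 4.61 to 5.99 on the log2 scale in the first round. It was 5.51 in knockout 1, 5.598 in knockout 7 and 5.79 in wild type 2, and 1.90 to 3.82 in the other 5 second-round libraries. Over all 8 libraries 22 of the 40 genes fell and 0 rose, against 31.2% and 22.4% of all autosomal genes (median log2 difference -1.51; -1.104 within the knockouts and -1.92 within the wild types). Among the 23 members with no shared word 9 fell and 0 rose (median -1.405). Single genes did not all follow the mean: in 2 of the 40 no value overlapped between the rounds. Mki67, the proliferation marker Ki-67, had 28.8 to 88.9 RPKM (median 74.6) in the first round and 1.03 to 68.5 RPKM (median 18.1) in the second, with overlap (log2 difference -1.84, SE 0.64, adjusted p = 0.0266). Its call was lost without first-round wild type 2 or 3 or second-round knockout 8 or wild type 3 (adjusted p = 0.05003 to 0.0614). Foxm1, a transcription factor of G2 and mitosis, had 25.7 to 58.2 RPKM (median 43.7) and 1.48 to 26.5 RPKM (median 6.56) (log2 difference -2.196, SE 0.48, adjusted p = 0.00167), and Ccnb1, cyclin B1, had 29.8 to 73 RPKM (median 49.4) and 0.291 to 36 RPKM (median 7.8) (-2.31; 42.1% of its words are shared with pseudogenes). Hmgb2, a chromatin protein of dividing cells, had 56.7 to 147 RPKM (median 102) and 4.65 to 49 RPKM (median 13.6), without overlap (-2.59). Over the 5 libraries alone 40 of 40 fell and the median log2 difference of the list was -2.37; since those libraries are named for their low cell cycle mean, this is a description. First-round wild type 1 had the lowest first-round mean, 4.61. The histone list was apart from this pattern: its mean was 8.28 to 8.84 in the 3 libraries with a cell cycle mean at the first-round level, 5.73 to 6.71 in the other 5 and 0.70 to 1.16 in the first round. In bulk RNA, fewer cells of a type and less RNA per cell cannot be told apart, here and below.

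**Figure D4:**
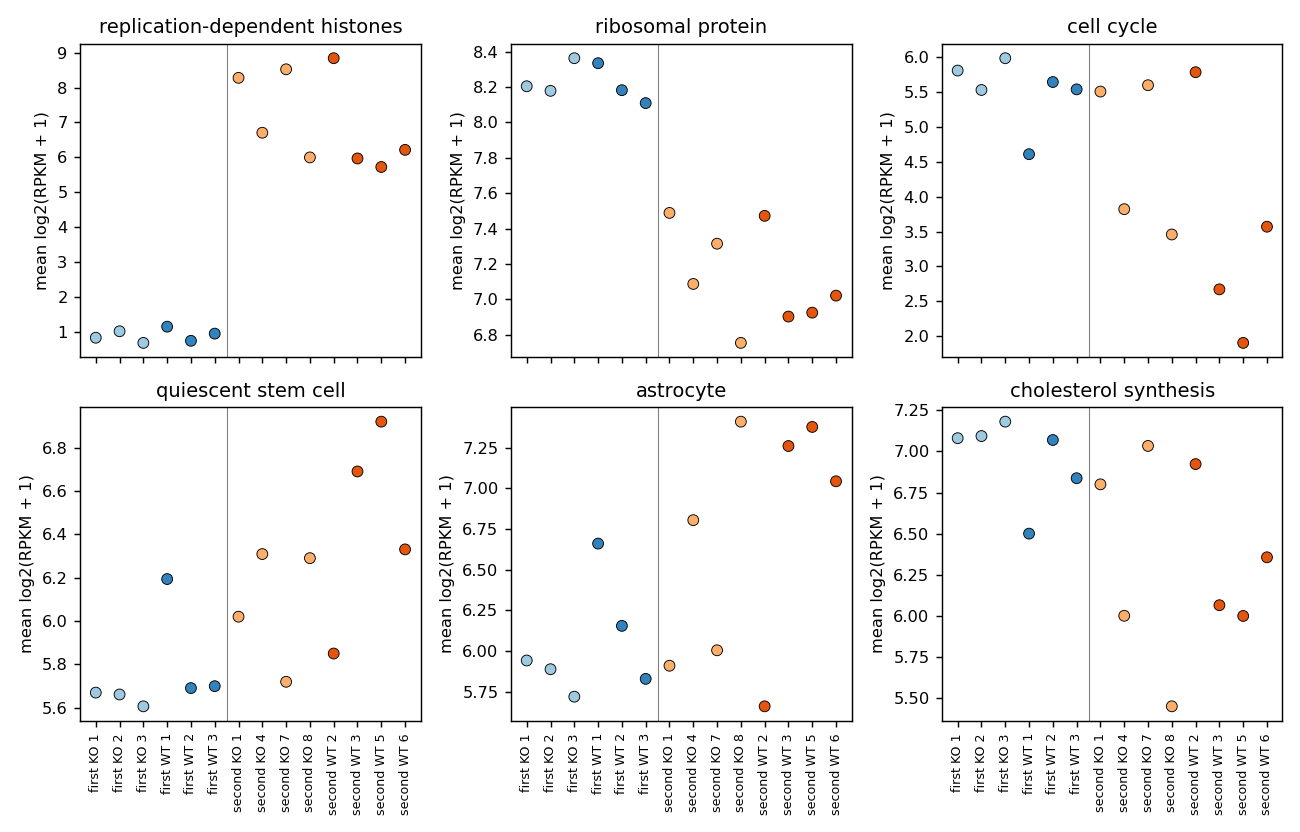
Mean log2(RPKM + 1) of 6 gene lists in each of the 14 libraries, first round left of the grey line, with knockouts in pale and wild types in dark colours. The histone and ribosomal protein means separate the rounds without overlap, whereas in the cell cycle panel second-round knockouts 1 and 7 and wild type 2 (5.51 to 5.79) lie among the first-round libraries.

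Promoters of 2 of these genes are printed for motifs known from cell cycle promoters. The 150 bases before the RefSeq start of each gene (GRCm38.p6) are printed with CCAAT and TTTGAA, the latter the core of the cell cycle homology element, in capitals on either strand:

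Ccnb1: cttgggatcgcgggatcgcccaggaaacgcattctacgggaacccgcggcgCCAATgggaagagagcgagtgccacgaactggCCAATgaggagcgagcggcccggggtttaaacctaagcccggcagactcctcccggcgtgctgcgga
Hmgb2: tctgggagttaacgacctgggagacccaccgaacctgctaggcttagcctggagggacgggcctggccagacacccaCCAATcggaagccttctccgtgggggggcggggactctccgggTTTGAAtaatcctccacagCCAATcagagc

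They are chr13:100786487-100786636 (minus strand) and chr8:57511693-57511842 (plus strand). Promoters on chr18 were left out of the counts that follow. In the 250 bases before the start, CCAAT or its reverse complement occurred in 25 of 32 promoters of 31 cell cycle genes (78.1%), against 35.4% of 12059 promoters of kept multi-exon genes and 33.8% of all 32851 promoters counted. TTTGAA occurred in 9 of the 32 (28.1%), against 10.1% and 15.99%, and both occurred in 9 (28.1%), against 3.81% and 5.55%. These counts are over the whole list, whether or not a gene fell. A match is no evidence of binding.

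Of the quiescent stem cell list 10 rose and 4 fell of 22 measured members (median log2 difference 0.65), against 22.4% and 31.2% of all autosomal genes. Id4, an inhibitor of bHLH factors that holds hippocampal stem cells in quiescence, had 0.682 to 5.63 RPKM (median 1.75) in the first round and 3.24 to 42.8 RPKM (median 12) in the second (log2 difference 2.29, SE 0.39, adjusted p = 0.00023; exact permutation p = 0.00163). Sox2, a stem cell transcription factor, had 72.1 to 155 RPKM (median 94.3) and 183 to 319.9 RPKM (median 254) without overlap (log2 difference 1.32, SE 0.16, adjusted p = 1.2e-05; exact permutation p = 0.000816). Nes, the progenitor filament nestin, fell from 273 to 397 RPKM (median 342) to 59.1 to 287 RPKM (median 143), with overlap (log2 difference -1.22, SE 0.31, adjusted p = 0.00482; exact permutation p = 0.00653). Sox9 (-0.86), Nr2e1 (-1.29) and the fatty acid carrier Fabp7 (-0.76), all genes of neural stem cells, fell. The mean of the list was 5.61 to 6.19 in the first round, 5.72 to 6.02 in second-round knockouts 1 and 7 and wild type 2, and 6.29 to 6.92 in the other 5 libraries. Without those 3 libraries 13 genes rose and 4 fell. The summed level of the list over its 23 genes went the other way, with overlap. It was 11744 to 14802 RPKM (median 12759.5) in the first round and 8009 to 14055.5 RPKM (median 10366) in the second.

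Astrocyte genes followed the same split of libraries. Of the list 11 rose and 1 fell of 25 measured members (median log2 difference 0.68), against 22.4% and 31.2% of all autosomal genes. Apoe, the main lipid carrier that astrocytes secrete, had 1170.2 to 3575 RPKM (median 1314) and 1664 to 15285 RPKM (median 9256), with overlap (log2 difference 1.99, SE 0.52, adjusted p = 0.00542). Cst3, a secreted protease inhibitor, had 403 to 957 RPKM (median 472) and 709 to 3595 RPKM (median 1841) (1.64). Agt, angiotensinogen, had 15.1 to 112 RPKM (median 20.3) and 22.1 to 425 RPKM (median 122) (log2 difference 1.67, SE 0.67, adjusted p = 0.0499), but lay at the threshold: the call was lost without any 1 of 10 of the 14 libraries, all but first-round wild type 1 and second-round knockouts 1 and 7 and wild type 2 (adjusted p = 0.0522 to 0.118). The pump subunit gene Atp1b2 fell, from 213 to 269 RPKM (median 246) to 49.7 to 125 RPKM (median 88) (-1.59). Gfap, the astrocyte and radial stem cell filament, had 2.31 to 149 RPKM (median 4.87) and 1.32 to 536 RPKM (median 52.9) and was not called (log2 difference 1.95, SE 1.27, adjusted p = 0.211; exact permutation p = 0.192). First-round wild type 1 held the first-round maximum of Gfap, 149 RPKM, where the other 5 had 2.31 to 10.4 RPKM. The second-round values of Gfap were lowest in wild type 2 (1.32 RPKM) and knockout 7 (2.47). Over the 5 second-round libraries without knockouts 1 and 7 and wild type 2, 18 of the 25 genes rose and 1 fell, and the log2 difference of Gfap was 3.67. Since the libraries left out include the lowest second-round values of Gfap, that value is a description with no test. The mean of the astrocyte list in those 3 libraries, 5.66 to 6.00, lay within the first-round range of 5.72 to 6.66 or just below it.

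Notch pathway genes moved in both directions. The receptor gene Notch1 had 39.3 to 44.9 RPKM (median 40.4) in the first round and 52 to 106 RPKM (median 83.2) in the second, without overlap (log2 difference 0.85, SE 0.14, adjusted p = 0.000196), and Notch2 had 8.7 to 13.7 RPKM (median 9.66) and 18.9 to 44.3 RPKM (median 35.5) (log2 difference 1.56, SE 0.19, adjusted p = 9.16e-06). Lfng, the glycosyltransferase that tunes receptor choice of ligand, rose from 88.1 to 139.9 RPKM (median 108) to 152 to 376 RPKM (median 280) (1.27), whereas its relative Rfng fell (-0.83). The nuclear effector Rbpj fell from 16.8 to 23 RPKM (median 19.3) to 6.43 to 8.68 RPKM (median 7.69) (-1.25; 23.3% shared words), as did the receptor protease Adam10, from 70.5 to 94.8 RPKM (median 93) to 36.5 to 46.2 RPKM (median 39.4) (-1.13). The target gene Hes5 had 22.2 to 53.5 RPKM (median 27.7) and 24.6 to 183 RPKM (median 97), with overlap (log2 difference 1.38, SE 0.37, adjusted p = 0.00651). Of the list 9 rose and 8 fell of 25 measured members (median log2 difference 0.18).

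**Figure D5:**
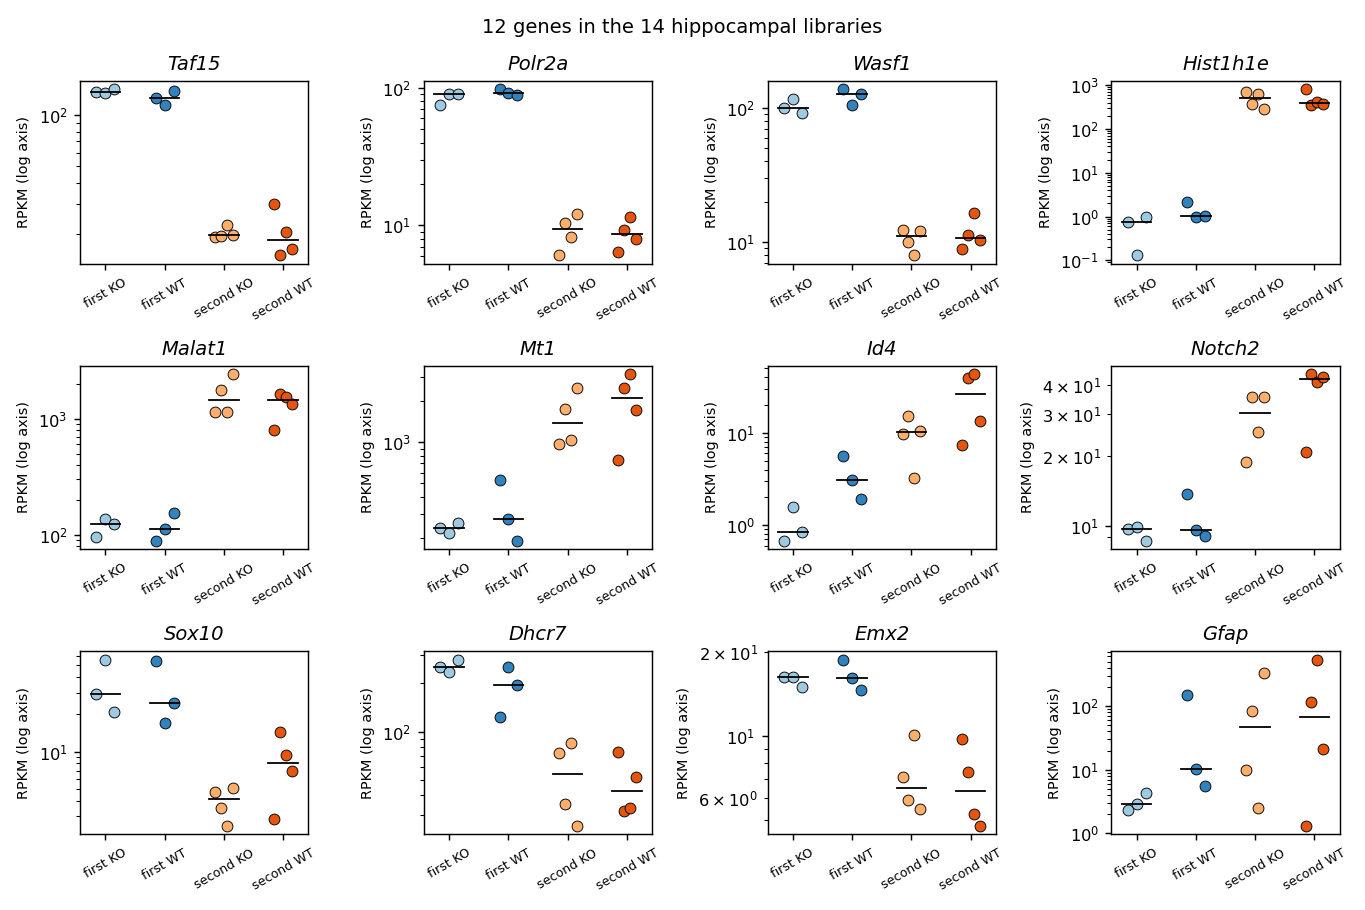
RPKM (log axes) of 12 genes in the 14 libraries, by round and genotype, each point 1 library and each bar a group median. Taf15, Polr2a, Wasf1, Hist1h1e, Malat1, Mt1, Notch2, Sox10, Dhcr7 and Emx2 do not overlap between rounds, whereas Id4 and Gfap do. Taf15, Polr2a, Wasf1 and Mt1 were named by a rule that required no overlap.

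Of 16 measured oligodendrocyte precursor genes 7 fell and 3 rose, and the summed level of the precursor list was 3160 to 4180 RPKM in the first round and 3063 to 4150 RPKM in the second. Sox10, the transcription factor of the lineage, had 16.9 to 55.7 RPKM (median 27.1) and 2.5 to 14.5 RPKM (median 4.86), without overlap (log2 difference -2.31, SE 0.35, adjusted p = 9.23e-05), and Gpr17, a receptor of committed precursors, had 111 to 362 RPKM (median 242) and 20.1 to 306 RPKM (median 65.3), with overlap (log2 difference -1.61, SE 0.50, adjusted p = 0.0145). Ptprz1, a receptor phosphatase, had 1058 to 1642 RPKM (median 1559) and 467 to 787 RPKM (median 621) (-1.26). Olig1 went the other way, from 195 to 390.3 RPKM (median 267) to 468 to 994 RPKM (median 768) (1.37), as did the proteoglycan gene Bcan (0.64). Pdgfra, the growth factor receptor of precursors, had 29.4 to 70.8 RPKM (median 40.6) and 7.69 to 45.1 RPKM (median 24.4), with overlap (log2 difference -0.84, SE 0.30, adjusted p = 0.0285). Its call was lost without any 1 of first-round knockouts 1 and 2 and wild types 2 and 3 (adjusted p = 0.0505 to 0.0726) and under median scaling, quantile normalization and GC centring (adjusted p = 0.0567 to 0.0681). Of the precursor list 3 rose and 7 fell of 16 measured members (median log2 difference -0.68). In the myelin list 7 of 10 measured members fell and 0 rose (median -1.04), and 6 of 16 autosomal members did not reach the filter. Mbp, myelin basic protein, had 3.1 to 11.7 RPKM (median 6.62) and 0.203 to 6.05 RPKM (median 1.29) (log2 difference -1.55, SE 0.37, adjusted p = 0.00283), and Myrf, the myelin regulatory factor, had 1.67 to 7.65 RPKM (median 2.48) and 0.216 to 1.28 RPKM (median 0.474) (-1.49). All were low, and the falls were present over the 5 second-round libraries too, where 8 of 10 myelin genes fell.

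Regional and neuronal genes changed by member. Emx2, a factor of the dorsal telencephalon, had 14.6 to 18.8 RPKM (median 16.3) and 4.78 to 10 RPKM (median 6.53), without overlap (log2 difference -1.14, SE 0.15, adjusted p = 2.31e-05; exact permutation p = 0.000816). Zbtb20, a factor of hippocampal pyramidal neurons and astrocytes, rose from 3.83 to 6.7 RPKM (median 4.5) to 9.8 to 29.3 RPKM (median 20.4) (log2 difference 1.77, SE 0.24, adjusted p = 2.79e-05), and Dmrta2, of the cortical hem, from 0.104 to 0.545 RPKM (median 0.382) to 0.308 to 11.6 RPKM (median 7.42) (2.04). Dmrta2 reached the filter through the second round alone, so the filter favoured its rise. Of the hippocampal and dorsal list 3 rose and 3 fell of 11 measured members (median log2 difference -0.15), and the median was 0.003 after median scaling. The SoxC gene Sox11 of young neurons rose from 9.66 to 13.3 RPKM (median 11.5) to 22.4 to 48.2 RPKM (median 35.1) (1.501) and so did Sox4 (0.97), while Prox1, of dentate granule cells, fell (-0.46), a call lost under median scaling (adjusted p = 0.0794), quantile normalization (0.0507) and GC centring (0.118). Among mature neuron genes 1 rose and 6 fell of 14 measured members (median log2 difference -0.48), and 2 rose and 5 fell over the 5 second-round libraries, for example Snap25, of synaptic vesicle fusion, from 7.89 to 16.3 RPKM (median 9.23) to 0.938 to 5.26 RPKM (median 2.98) (-1.53), and Nrgn, neurogranin (-2.25); the glutamate receptor gene Gria1 rose (0.90). Foxj1, of motile cilia, rose from 8.24 to 16.5 RPKM (median 10.1) to 19.4 to 36.8 RPKM (median 30.7) (1.301).

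Cholesterol synthesis genes were lower, again most in the 5 libraries of low cell cycle mean. Of the list 10 of 22 measured genes fell and 0 rose (median -0.57), against 31.2% and 22.4% of all autosomal genes, and over those 5 libraries 18 of 22 fell. Among the 16 members with no shared word 6 fell and 0 rose (median -0.43). Dhcr7, which makes cholesterol in the last step, had 124 to 281 RPKM (median 244) and 25.9 to 85.3 RPKM (median 43.5) (log2 difference -2.18, SE 0.28, adjusted p = 1.98e-05). Idi1 (-2.14) and Fdps (-1.84), of isoprenoid synthesis, fell too, with 21.3% and 3.65% of words shared with pseudogenes. The list mean was 6.501 to 7.18 in the first round, 6.80 to 7.03 in second-round knockouts 1 and 7 and wild type 2, and 5.45 to 6.36 in the other 5. Oxidative phosphorylation genes went both ways: of the list 15 rose and 9 fell of 35 measured members (median log2 difference 0.17), and over those 5 libraries 11 rose and 11 fell (median 0.03). The list mean was 7.90 to 8.07 in the first round, 8.15 to 8.27 in the 3 libraries set apart and 7.66 to 8.065 in the other 5. Cox6a1, of complex IV, rose from 172 to 303 RPKM (median 222) to 594 to 707 RPKM (median 642) (1.49), and Cycs, cytochrome c, fell (-1.29). Among the 22 members with no shared word 12 rose and 2 fell. In the glycolysis and hypoxia list 6 rose and 7 fell of 25 measured members (median log2 difference -0.03), and the median was 0.12 after median scaling; Eno1 fell (-1.67; 52.8% shared words), Higd1a fell (-1.903) and Pdk1 rose (0.82). Among the 15 members with no shared word 6 rose and 1 fell (median 0.43), and over the 5 libraries 6 of 25 rose and 11 fell. Of the heat shock and unfolded protein list 7 rose and 13 fell of 25 measured members (median log2 difference -0.35): Dnaja1 fell from 160 to 191 RPKM (median 184) to 49.2 to 57.1 RPKM (median 54.8) (-1.72) and Hsp90ab1 from 1336 to 1575 RPKM (median 1471) to 506 to 742 RPKM (median 584) (-1.28). Among the 14 members with no shared word 5 rose and 5 fell (median -0.10).

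Growth factor response genes were split. Spred2, an inhibitor of Ras signalling, fell from 32.5 to 51.1 RPKM (median 39.4) to 4.47 to 12.9 RPKM (median 8.68) (log2 difference -2.104, SE 0.19, adjusted p = 5.27e-07), Phlda1 fell (-1.999) and so did the ETS factor Etv1 (-1.88). The receptor gene Erbb4 rose from 12 to 35.8 RPKM (median 19.8) to 32.8 to 102 RPKM (median 71.9) (1.52), and the receptor gene Fgfr3 (0.95) and the receptor inhibitor Lrig1 (0.90) rose too. Of the EGF and FGF response list 6 rose and 4 fell of 22 measured members (median log2 difference 0.14), and over the 5 libraries 6 rose and 9 fell. Immediate early genes moved in both directions: Jund had 18.2 to 40.3 RPKM (median 20.6) and 76.9 to 112 RPKM (median 91.4) (log2 difference 1.98, SE 0.16, adjusted p = 1.84e-07), Junb rose (1.55) and Fos rose with overlap (1.07, exact permutation p = 0.0171), while Egr1 fell from 32.4 to 94.7 RPKM (median 69.3) to 6.43 to 29.9 RPKM (median 16.8) (log2 difference -1.85, SE 0.27, adjusted p = 5.82e-05) and Myc fell (-1.14). Of the list 6 rose and 4 fell of 25 measured members (median log2 difference -0.10), with a median of 0.05 after median scaling, and over the 5 libraries 6 rose and 11 fell. The list mean was 2.58 to 2.90 in the first round, 3.025 to 3.12 in the 3 libraries set apart and 2.54 to 2.82 in the other 5. Of the Wnt, Shh and BMP list 12 rose and 4 fell of 28 measured members (median log2 difference 0.23): Wnt7b (1.002), the BMP inhibitor Nog (0.95) and Smad9 (0.97) rose, and the Wnt effector genes Tcf7l1 (-1.61) and Tcf7l2 (-0.71) fell.

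Of the matrix list 12 rose and 2 fell of 31 measured members (median log2 difference 0.31), against 22.4% and 31.2% of all autosomal genes, and over the 5 libraries 13 rose and 5 fell. Sparcl1, a secreted matricellular protein, had 173 to 328 RPKM (median 277) and 412 to 1376 RPKM (median 589.7), without overlap (log2 difference 1.304, SE 0.26, adjusted p = 0.000833), and Lamb2, a laminin chain, had 11 to 16.3 RPKM (median 12.4) and 19.9 to 59 RPKM (median 38.2) (1.44); the proteoglycan gene Vcan fell (-0.94). Among integrin and adhesion genes 6 rose and 1 fell of 22 measured members (median log2 difference 0.02), and 9 rose and 4 fell over the 5 libraries, with Cd81, a tetraspanin, at 597 to 745 RPKM (median 719) and 1279 to 2097 RPKM (median 1584) (1.21). In the antigen presentation list 5 rose and 1 fell of 13 measured members (median log2 difference 0.35); Tapbp (0.89) and Tap1 (0.62) rose. Of complement and inflammation genes 5 rose and 2 fell of 14 measured members (median log2 difference 0.40), and C4b, a complement component, had 0.253 to 5.11 RPKM (median 0.851) and 1.69 to 56.4 RPKM (median 6.28) (log2 difference 2.202, SE 0.70, adjusted p = 0.0164). Interferon-stimulated genes gave 2 rises and 6 falls of 18 (median 0.01, and -0.09 after quantile normalization). Imprinted genes fell in 8 of 18 cases and rose in 2 (median -0.53): Peg10 fell from 9.24 to 21.6 RPKM (median 18.7) to 2.52 to 7.58 RPKM (median 3.63) (-1.79) and Igf2r rose (0.79). Among the 13 imprinted members with no shared word 4 fell and 2 rose (median -0.09). The smooth muscle gene Acta2 fell from 2.86 to 15.9 RPKM (median 5.57) to 0.035 to 2.91 RPKM (median 0.773) (-1.95), Tagln fell (-1.43), and the integrin gene Itgam, a myeloid marker, was 0.773 to 1.81 RPKM (median 1.23) in the first round and 0 to 0.019 RPKM (median 0.0045) in the second (-1.15). Itgam reached the filter through the first round alone, so the filter favoured its fall. Of the DNA methylation list 5 rose and 3 fell of 13 measured members (median log2 difference -0.03), with a median of 0.12 after median scaling: Gadd45a rose (1.29), Mbd3 fell (-1.401) and Uhrf1, which brings Dnmt1 to replicating DNA, fell with overlap (-1.83), a call lost without first-round wild type 2 or 3 (adjusted p = 0.0566 and 0.0583). Of primary cilium genes 8 rose and 5 fell of 34 measured members (median log2 difference 0.07).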

How the data were processed

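RNA of 14 hippocampal neurosphere libraries was compared between sphere rounds. The labels' protocols name Trizol extraction, Ribo-Zero depletion, a stranded TruSeq kit, exon capture with SureSelectXT and paired reads of 100 bases. The submitters' processing notes name FastQC 0.11.5, DESeq2 and the builds mm10 and GRCm38; no source used here gives the aligner, the counter or whether strand was used, so antisense pairs may share reads. Linear RPKM per gene were deposited by the authors, per the file headers, with decimal commas, and empty cells were read as 0. No count model was applied to RPKM. Read depth was estimated from the lowest single-exon values.

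The members, gene lists, the named-gene rule and the tests were chosen with earlier results of these data known. The filter of 1 RPKM in 3 libraries kept 14621 genes on any chromosome. Values were tested as log2(RPKM + 1) with limma 3.58.1 in R 4.3.3 (eBayes with trend and robust). The round difference was the coefficient of round in a fit with round and genotype as terms. A fit with 1 mean per group gave the round contrasts within each genotype and their difference. P-values were adjusted over all kept genes at 0.05. Single values were tested by two-sided exact permutation of rounds within genotype (1225 arrangements). Exons and types came from GENCODE M21 and positions from the deposited table; 11784 of 12243 multi-exon genes (96.3%) had a transcript for the GC and shared-word values. The text names the 12 largest called differences per direction (mean of at least 5 RPKM in a round, no overlap, same sign in both genotypes), the 12 largest with no shared 50-base word, which were added after the values were seen, up to 3 called members per list and direction, and a set of marker genes; some genes that the rule names are counted but not named, and a few items are not reported here. Single markers of other cell types were named after their values were seen. The fit was tested on simulated data of 14621 genes. Of 67, 67 and 66 genes changed by 0.5, 1 and 2 on the log2 scale, 29.9%, 80.6% and 93.9% were recovered, with 5 false calls. Few genes were changed there, and each had the same spread in all libraries. In the data 53.6% of genes were called, and the median spread of multi-exon genes was larger in the second round. The recovered shares and false calls thus describe the simulated setting only.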

Additional observations from a re-analysis of the deposited data

Results flagged for a closer look

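Mir6919, a microRNA gene on chromosome 11, was flagged because its round difference differed between genotypes: the difference in knockouts minus that in wild types was 2.37 on the log2 scale (limma interaction term, adjusted p = 0.000257). It was at 0 RPKM in all first-round libraries and in all second-round wild types, and between 3.14 and 4.89 RPKM in the second-round knockouts. It was the only autosomal gene called in this test, and groups without spread enter its error. Mir6919 reached the filter through the second-round knockouts alone, so the filter itself favoured this call. With the filter of 5 RPKM, which it did not reach, 0 genes were called in this test.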

How the results depend on the processing

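Round cannot be told apart from depth or library preparation, nor, in the wild types, from donor sex, and the first round's lower depth limits genes near 1 RPKM. Pseudocount 0.1, a filter of 5 RPKM, no filter, median scaling, quantile normalization, plain eBayes, arrayWeights, a cell cycle covariate, all 20 libraries, the authors' gene list and no genotype term left the count of multi-exon calls within 1.5 times the reported 6424, as did GC centring and the use of 5 second-round libraries (7525 calls, 5930 shared with the 6424, all in the same direction), both chosen after seeing the data. With only the 9300 genes that share no 50-base word, also chosen after seeing the data, 2554 genes were lower, and 1989 with GC centring as well.

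Leaving out 1 library each gave 5767 to 6895 multi-exon calls (2215 to 2661 higher, 3552 to 4234 lower), 267 to 305 short RNA calls (252 to 291 higher, 13 to 16 lower), 3247 to 4596 calls within knockouts, 3252 to 4951 within wild types and 1 to 4 for the genotype difference. Short RNA calls were 168 (156 higher) with the filter of 5 RPKM, where fewer genes were tested, and 182 were higher among the authors' filtered genes. The genotype difference was called in 5 genes with pseudocount 0.1, 0 with the filter of 5 RPKM, 7 with no filter, 4 with plain eBayes, 5 with arrayWeights, 0 among the authors' filtered genes and 4 with 5 second-round libraries; the cause was not tested.

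A replicate block on genotype and mouse number rests on the 3 numbers found in both rounds (knockout 1, wild types 2 and 3) and left 1983 multi-exon calls (718 higher, 1265 lower) and 174 short RNA calls (166 higher, 8 lower), where few degrees of freedom remain. The deviations of same-numbered libraries had correlations of -0.05, 0.37 and -0.36. The wild-type numbers mark female donors in one round and male ones in the other, so they do not pair the samples. Whether knockout 1 was the same animal in both rounds cannot be settled from these values. Of 6105 values of named genes under the alternatives 5904 kept direction and side of the threshold, 191 lost the call and 7 gained it. Of the lost calls of 219 named genes, 91 were under the replicate block and 33 with the cell cycle covariate. Among those 33 were Hes5 (0.54 with the covariate), Fgfr3 (0.34), Fos (0.33) and C4b (0.65). Gfap turned to -1.15 with that covariate, LOC102639505 to -0.015 under the replicate block and Egfl7 to -0.0040 without first-round wild type 3 (range 0.12 at most when 1 library was left out), none of them called there.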

Other observations

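Some gene groups belong to none of the sets above, and their counts are given here. Of small nucleolar RNA host genes 1 rose and 5 fell of 10 measured members (median log2 difference -0.21). Of serine synthesis and Atf4 target genes 4 rose and 4 fell of 27 measured members (median log2 difference -0.04), with a median of 0.11 after median scaling; over the 5 second-round libraries of low cell cycle mean 4 rose and 14 fell. Of proneural and neuroblast genes 5 rose and 2 fell of 12 measured members (median log2 difference 0.14), and over those 5 libraries 5 rose and 4 fell (median 0.03). Of ependymal and choroid plexus genes 1 rose and 1 fell of 6 measured members (median log2 difference 0.16), and over those 5 libraries 2 rose and 1 fell. Of Hox genes 2 rose and 0 fell of 3 measured members (median log2 difference 0.43), and of ventral telencephalic genes 0 rose and 1 fell of 4 measured members (median log2 difference -0.01), this last median turning to 0.14 after median scaling. Among 402 single-exon genes over 400 bases, the class that holds most histone genes, 168 rose and 128 fell.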
